A study of Mus musculus with 79 samples.

Results

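The mammalian circadian clock was followed through 10 of its core genes, Per1, Per2, Per3, Cry1, Cry2, Arntl, Clock, Nr1d1, Nr1d2 and Dbp, in nuclei sorted from the visual cortex of dark-housed mice. The genes were taken by symbol from a table of 55335 gene rows and 79 RNA-seq libraries, and all 10 had a row. The study silenced cortical neurons with Kir2.1, an inward rectifier potassium channel, to ask how much the activity left in the dark shapes gene expression. Each library was made from 50 to 100 nuclei.

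All groups shared 1 genotype, heterozygous for the INTACT knock-in allele (wt/ki) and for the VIP Cre knock-in allele (wt/ki). INTACT tags the nuclear envelope of cells that express Cre, here the interneurons that make vasoactive intestinal peptide (VIP). All libraries were labelled as dark housed for 10 days. Mice were injected at postnatal day 55 to 60, and dark housing began 3 days later and lasted 10 to 12 days. The protocol also names a harvest after a return to light, but no library carried that label. No label gave the time of day at harvest. The active vector was AAV-Syn1-Kir2.1-2a-mScarlet-KASH, in which the neuronal Syn1 promoter drives the channel and a red nuclear tag, and the control vector carried a mutant Kir2.1 in its place. Under the active vector, transduced nuclei were sorted as VIP (10 libraries) or as neurons (8 libraries), and non-transduced nuclei as VIP (10 libraries) or as all nuclei (10 libraries). The mutant vector had 9, 8, 9 and 9 libraries of these populations. Uninjected mice added 3 VIP libraries and 3 from all nuclei.

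In the clock, the CLOCK and BMAL1 proteins (BMAL1 is the product of Arntl) bind E-box elements and switch on the Per and Cry genes, whose products then repress CLOCK and BMAL1. In a further loop, the nuclear receptors encoded by Nr1d1 and Nr1d2 repress Arntl through elements shared with the ROR receptors. Dbp and its relative Tef encode PAR bZIP factors that bind D-box elements, including elements in Per genes. Cortical cells run such a clock of their own, which the suprachiasmatic nucleus keeps in time with light. Per1 and Per2 also respond to neuronal activity and to glucocorticoids.

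All 10 genes are protein coding, with coordinates here on mm10. Among the period genes, Per1 (ENSMUSG00000020893) lies at chr11:69095217-69109960, Per2 (ENSMUSG00000055866) at chr1:91415982-91459324 and Per3 (ENSMUSG00000028957) at chr4:151003652-151044665. The cryptochromes lie at chr10:85131700-85185064 (Cry1, ENSMUSG00000020038) and chr2:92403646-92434043 (Cry2, ENSMUSG00000068742). Arntl (ENSMUSG00000055116) lies at chr7:113207465-113314126 and Clock (ENSMUSG00000029238) at chr5:76209868-76304792. Nr1d1 (ENSMUSG00000020889) lies at chr11:98767932-98775333, Nr1d2 (ENSMUSG00000021775) at chr14:18204054-18239127 and Dbp (ENSMUSG00000059824) at chr7:45705088-45710203. Per3 lies wholly inside Camta1 on the same strand, and the 2 genes share 0 exon bases. In nuclei, reads from unspliced Camta1 RNA over Per3 exons cannot be told apart from those of Per3. Exons of Nr1d1 overlap those of Thra on the other strand by 263 bases, and those of Dbp overlap Sphk2 by 539 bases. Cry2 shares 295 exon bases with D930015M05Rik and Arntl shares 33 with Gm45355, also on the other strand. The library kit does not mark strand, so reads from these shared bases cannot be told apart.

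Promoter windows from 250 bases before to 50 after the start site (RefSeq, GRCm38.p6) were matched for 9 of the 10 genes. They were searched on both strands for 5 clock motifs, the E-box CACGTG, the E-box variant CACGTT, the D-box TTATGTAA, the REV-ERB and ROR element core TAGGTCA and the cAMP response element core TGACGT. Of 32851 mouse promoter windows, 7.15% held the E-box, 4.68% the variant, 0.938% the D-box, 2.61% the REV-ERB and ROR core and 7.51% the cAMP response core. The E-box was found in Per1 at -166 and in Cry1 at -60, counted from the start site. The variant was found in Cry1 at -79, in Cry2 at -166 and in Nr1d1 at -28. Per3 held the D-box at -205 and -158, Arntl the REV-ERB and ROR core at +31, and an alternative Per1 promoter the cAMP response core at -132. No matched sites in these windows overlapped. A match describes the letters of the window and does not show binding. The windows below belong to the genes on which the results turn: Per3 and Cry2, which differed with the vector, Nr1d1, which differed between numbered sets of libraries, and Arntl, which differed between populations. Each is given 5′ to 3′ on the strand of its gene, with motif matches in capitals (matches in Cry2 and Nr1d1 are to the opposite strand).
Per3, chr4:151044616-151044915, minus strand: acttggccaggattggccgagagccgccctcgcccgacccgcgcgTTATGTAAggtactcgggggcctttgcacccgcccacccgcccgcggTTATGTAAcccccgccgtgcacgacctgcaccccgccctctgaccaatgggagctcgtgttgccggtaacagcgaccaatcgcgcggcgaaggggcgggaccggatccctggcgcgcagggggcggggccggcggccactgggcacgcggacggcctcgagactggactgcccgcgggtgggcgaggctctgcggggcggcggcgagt
Cry2, chr2:92434020-92434319, minus strand: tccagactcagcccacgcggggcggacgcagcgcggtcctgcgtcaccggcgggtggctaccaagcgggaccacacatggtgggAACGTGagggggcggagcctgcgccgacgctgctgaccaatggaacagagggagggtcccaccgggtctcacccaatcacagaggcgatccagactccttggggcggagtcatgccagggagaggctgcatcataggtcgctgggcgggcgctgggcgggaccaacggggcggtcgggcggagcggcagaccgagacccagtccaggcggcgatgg
Nr1d1, chr11:98775328-98775627, minus strand: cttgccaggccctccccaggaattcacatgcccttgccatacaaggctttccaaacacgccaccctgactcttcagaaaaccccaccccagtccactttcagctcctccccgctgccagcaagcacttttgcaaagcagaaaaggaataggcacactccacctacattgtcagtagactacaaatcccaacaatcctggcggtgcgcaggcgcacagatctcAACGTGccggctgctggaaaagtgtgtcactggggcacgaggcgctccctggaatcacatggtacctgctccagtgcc
Arntl, chr7:113207261-113207560, plus strand: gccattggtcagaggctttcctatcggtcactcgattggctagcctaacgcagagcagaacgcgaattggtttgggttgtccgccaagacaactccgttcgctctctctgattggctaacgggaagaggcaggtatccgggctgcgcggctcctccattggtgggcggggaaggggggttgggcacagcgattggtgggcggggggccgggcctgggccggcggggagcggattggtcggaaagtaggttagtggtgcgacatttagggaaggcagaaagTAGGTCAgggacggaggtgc

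Total gene counts per library ran from 3219899 to 9267246, with a median of 6170915. The levels of Xist and of Y-linked genes went against the sex label in 32 of the 79 libraries. The sex labels entered no main result, only an alternative fit, which therefore did not adjust for the sex pattern of the counts. In each of the 22 sets of libraries that share a vector and a replicate number, however, every library showed the same sex pattern. In 6 libraries the profile correlated at under 0.85 with the median of its group: Kir2.1 transduced VIP 1 and 6, Kir2.1 non-transduced VIP 9, Kir2.1 transduced neurons 10, mutant transduced VIP 1 and mutant non-transduced VIP 1. Summed VIP neuron markers went with the sort. They reached 7981 to 11870 CPM (counts scaled to the library total) in Kir2.1 transduced VIP nuclei and 63.27 to 446.6 CPM in Kir2.1 transduced neurons. Excitatory markers in Kir2.1 transduced VIP nuclei, at 909.7 to 1618 CPM, overlapped all Kir2.1 non-transduced nuclei, at 1163 to 1852 CPM. Astrocyte markers did too, at 287.2 to 475.9 and 349.2 to 679.6 CPM. The library titles number each as a BioRep, but no label says that libraries of 1 group came from separate mice. The p-values therefore measure the spread between libraries. With bulk libraries, fewer cells of a type and less RNA per cell cannot be told apart.

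All 10 genes passed the filter on low counts in every comparison. Cry1 and Dbp were thinly covered. Cry1, a repressor of the loop, was listed with 0 counts in 2 Kir2.1 non-transduced VIP libraries and 1 mutant transduced VIP library, and its coefficient of variation (CV) within a group ran from 30.3% to 82.5% over the 8 groups with AAV. Dbp, the D-box factor, had from 5 to 214 counts per library with AAV and a CV of 23.2% to 114%. Per3, whose product is a period protein with a lesser role in keeping the rhythm, was the steadiest period gene, with a CV of 14.4% to 30.3% (median over groups 19.6%). Clock was the steadiest of the positive arm, with a CV of 18.1% to 31.3%, and its group means lay within 1.67-fold of each other, between 135.7 CPM in mutant non-transduced VIP nuclei and 81.33 CPM in all nuclei without AAV. The widest range of group means belonged to Per2, at 4.52-fold, with Dbp next at 4.31-fold and Per3 at 3.8-fold. Values are CPM with TMM scaling and no correction for length, so levels are compared only within a gene.

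The mean level of Per3 was highest in Kir2.1 neurons, lower in mutant neurons and all nuclei, and lowest in VIP nuclei. In transduced neurons it averaged 284.8 ± 54.8 CPM with Kir2.1 and 188.1 ± 27.8 CPM with the mutant vector (SD, n = 8 each). In all nuclei it averaged 165.7 ± 33.1 CPM with Kir2.1 (n = 10), 186.8 ± 56.6 CPM with the mutant (n = 9) and 157.7 ± 39.0 CPM without AAV (n = 3). In transduced VIP nuclei it averaged 131.4 ± 24.2 CPM with Kir2.1 and 89.6 ± 22.5 CPM with the mutant, and in non-transduced VIP nuclei 74.9 ± 21.0 CPM with Kir2.1, 96.1 ± 13.9 CPM with the mutant and 82.3 ± 2.9 CPM without AAV. Mutant neurons and the groups of all nuclei overlapped with each other, as did the non-transduced VIP groups with mutant transduced VIP nuclei. Arntl had its highest means in neurons, lower ones in all nuclei and its lowest in VIP nuclei. It averaged 92.6 ± 17.1 CPM in Kir2.1 neurons and 102.3 ± 26.5 CPM in mutant neurons, 70.7 ± 12.2, 61.1 ± 9.1 and 54.3 ± 9.6 CPM in all nuclei with Kir2.1, with the mutant and without AAV, and between 46.3 ± 14.4 and 36.9 ± 15.2 CPM in the VIP groups, which all overlapped.

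Dbp stood out in neurons, at 23.2 ± 5.4 CPM with Kir2.1 and 13.9 ± 3.8 CPM with the mutant, while the means of the other 8 groups lay between 5.37 and 10.15 CPM. Per1 and Per2 both had their highest mean in mutant neurons, at 55.8 ± 20.1 and 87.5 ± 28.8 CPM, and their lowest in VIP groups, at 17.5 ± 4.8 CPM with the mutant vector for Per1 and 19.4 ± 5.8 CPM without AAV for Per2. The group means of Nr1d1 ran from 99.8 ± 23.1 CPM in Kir2.1 neurons down to 52.9 ± 14.99 CPM in Kir2.1 non-transduced VIP nuclei. Those of Nr1d2, its paralog, spanned 1.62-fold and those of Cry1 1.74-fold. For Cry1 this was less than the range between libraries within each group. For Nr1d2 the same held, except in mutant neurons (47.82 to 66.19 CPM) and in all nuclei without AAV (30.3 to 42.12 CPM).

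**Figure D1:**
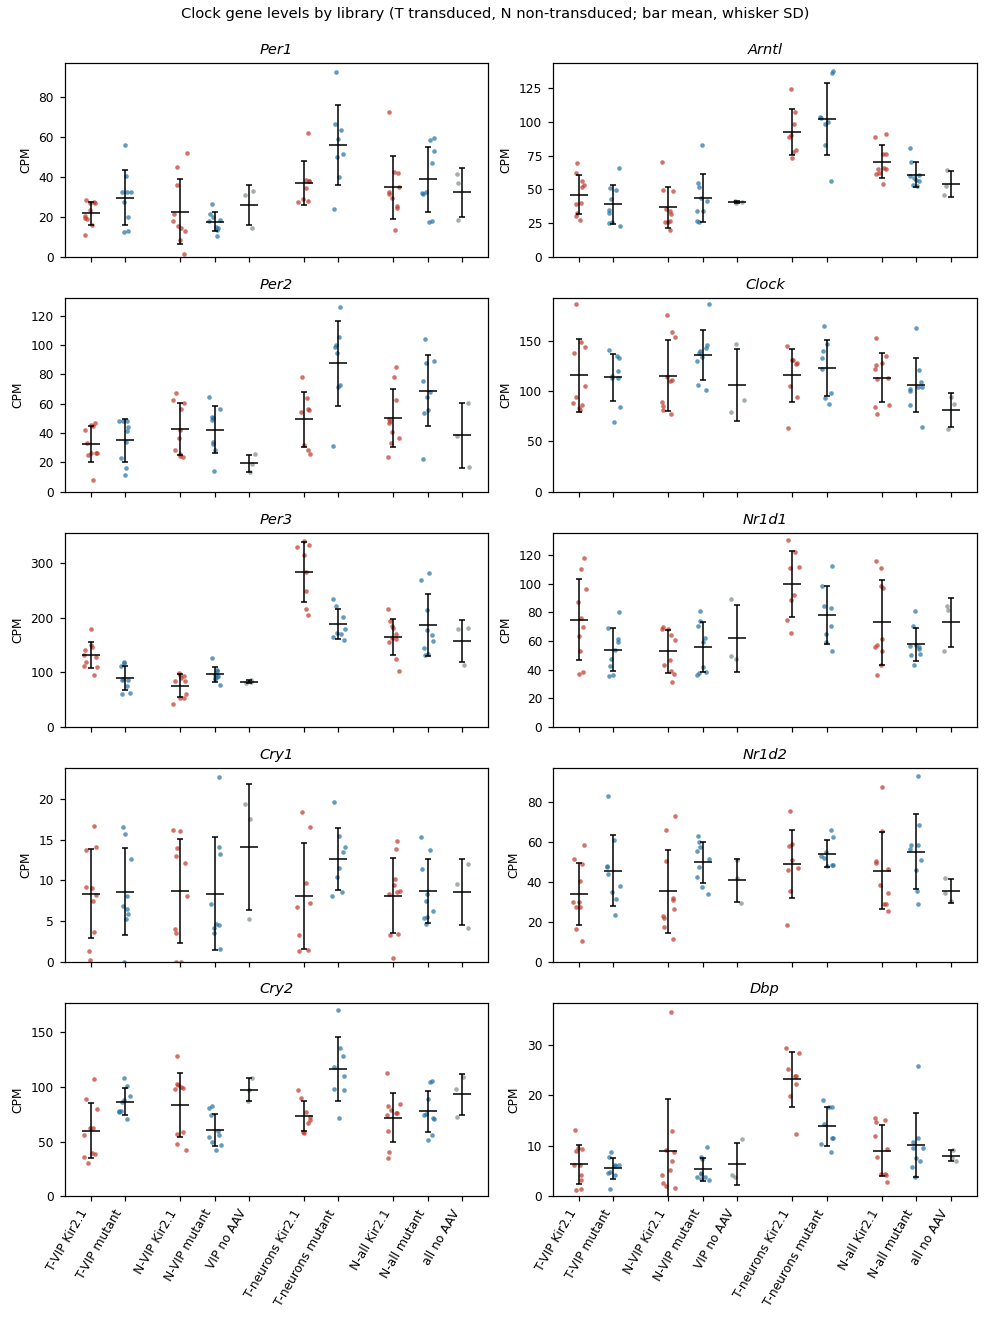
Normalised level (CPM, linear axis) of each of the 10 clock genes in every library of the 10 groups; points are libraries, horizontal bars are group means and whiskers are the SD. The means of Per3 and Arntl sit lower in the VIP groups than in neurons and all nuclei, while Cry1 and Dbp scatter most.

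Silencing was read from Kir2.1 against mutant nuclei within each sorted population. In transduced neurons, Per3 was higher and Cry2 lower with Kir2.1, and the other 8 clock genes did not pass the test. Per3 in Kir2.1 neurons had a lowest level of 205.4, a median of 300.6 and a highest level of 341.3 CPM, against 159.9, 175.3 and 233.9 CPM in mutant neurons (n = 8 each). The groups overlapped, with 6 of 8 Kir2.1 libraries above the highest mutant one. The log2 fold change was 0.65 ± 0.14 (SE), or 1.57-fold, with an edgeR quasi-likelihood adjusted p of 0.00382. Cry2, which encodes a cryptochrome repressor, had a lowest level of 58.22, a median of 71.22 and a highest level of 97.16 CPM in Kir2.1 neurons, against 72.13, 114.2 and 170.2 CPM in mutant neurons. Here 4 of 8 Kir2.1 libraries lay below the lowest mutant one, and the edgeR log2 fold change was -0.60 ± 0.17 (adjusted p = 0.0315). The Cry2 call was lost without any 1 of 7 libraries (adjusted p = 0.0555 to 0.0832 by edgeR): Kir2.1 replicates 4, 7, 8 and 9 or mutant replicates 2, 6 and 7. It was also lost with a replicate block (edgeR adjusted p = 0.112) and in 1 edgeR fit of all 79 libraries (adjusted p = 0.0784). That block joined Kir2.1 and mutant libraries of equal number, which no label pairs, and left out numbers not found with both vectors. Of all 15949 genes tested in neurons, 5.63% passed, 2.18% higher and 3.45% lower, beside 1 higher and 1 lower of the 10 clock genes. The median clock gene changed by -0.10 and the median of all genes by 0.04 on the log2 scale.

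Per2 and Dbp were near the threshold in transduced neurons. Per2, an activity-responsive period gene, had a lowest level of 25.9, a median of 55.06 and a highest level of 78.26 CPM in Kir2.1 neurons, against 31.15, 96.56 and 126.2 CPM in mutant neurons. Its ranges overlapped, and its log2 fold change was -0.77 ± 0.24 with an edgeR adjusted p of 0.062. Mutant set 7 supplied the lowest mutant value of Per2, and without that library the edgeR adjusted p was 0.0148. Without Kir2.1 neuron replicate 10, which stood apart, it was 0.025. Dbp had a lowest level of 12.27, a median of 23.87 and a highest level of 29.45 CPM in Kir2.1 neurons, against 8.855, 12.95 and 19.02 CPM in mutant neurons. Although 7 of 8 Kir2.1 libraries exceeded the highest mutant one, the log2 fold change of 0.78 ± 0.26 missed the threshold (edgeR adjusted p = 0.0742), and it passed without Kir2.1 replicate 3 (edgeR adjusted p = 0.0469). Per1, which shares the activity response of Per2, gave -0.54 ± 0.23 (edgeR adjusted p = 0.182). Nr1d1 gave 0.41 ± 0.18 (edgeR adjusted p = 0.215), and its partner across the strand, Thra, gave 0.67 ± 0.22 (edgeR adjusted p = 0.0732). The partner of Cry2 across the strand, D930015M05Rik, gave -0.38 ± 0.21 (edgeR adjusted p = 0.353). Camta1, the gene around Per3, gave 0.13 ± 0.13 (edgeR adjusted p = 0.666). Clock (-0.04), Arntl (-0.09) and Nr1d2 (-0.10) lay near 0 on the log2 scale, and Cry1 gave -0.58 ± 0.46 (edgeR adjusted p = 0.554).

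In transduced VIP nuclei 0 of 10 clock genes passed, where 1.39% of 21207 genes did (0.354% higher and 1.03% lower). At an unadjusted p under 0.05 there were 3 clock genes, Per3, Cry2 and Nr1d1, and 2378 of all genes. Per3 came nearest. It had a lowest level of 95.23, a median of 129.8 and a highest level of 179.2 CPM in Kir2.1 nuclei (n = 10), against 60.86, 86.23 and 119.5 CPM in mutant nuclei (n = 9). In 7 of 10 Kir2.1 libraries the level was above the highest mutant one, and the log2 fold change was 0.57 ± 0.17, or 1.48-fold (edgeR adjusted p = 0.0682). The difference passed without the libraries that stood apart (edgeR adjusted p = 0.04), in DESeq2 (adjusted p = 0.0133) and in 1 edgeR fit of all 79 libraries (adjusted p = 0.0369). Cry2 had a lowest level of 30.13, a median of 59.13 and a highest level of 107 CPM in Kir2.1 VIP nuclei, against 70.94, 86.08 and 108.2 CPM in mutant VIP nuclei. Here 7 of 10 Kir2.1 libraries were below the lowest mutant one, yet the log2 fold change of -0.51 ± 0.21 did not pass (edgeR adjusted p = 0.272). Nr1d1 gave 0.50 ± 0.22 (edgeR adjusted p = 0.35) and Per1 gave -0.42 ± 0.34 (edgeR adjusted p = 0.762). The remaining log2 fold changes ran from -0.41 for Nr1d2 to 0.27 for Arntl. Neither Per3 nor Cry2 differed in its vector effect between transduced VIP nuclei and neurons past the threshold, with differences of -0.05 ± 0.21 for Per3 (edgeR adjusted p = 1) and 0.13 for Cry2. For this difference 0 of 10 clock genes and 0.316% of all genes passed by edgeR, 0 clock genes had an unadjusted p under 0.05, and DESeq2 called 0.

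**Figure D2:**
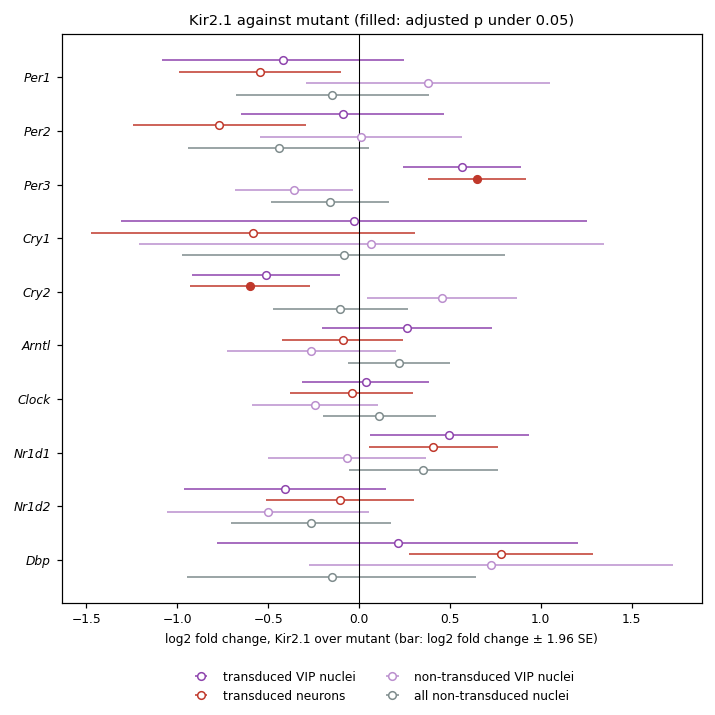
Log2 fold change of each clock gene, Kir2.1 over mutant, in the 4 sorted populations. Points are edgeR estimates, and filled points passed the adjusted threshold of 0.05. Bars are approximate 95% intervals set from the SE by the normal distribution, which makes them narrower than intervals that allow for few libraries. Per3 at 0.65 and Cry2 at -0.60 in transduced neurons are the 2 filled points.

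The vectors were also compared in nuclei that were not transduced. In non-transduced VIP nuclei 0 of 10 clock genes passed, as did 0% of all 21207 genes by edgeR (at an unadjusted p under 0.05 there were 2 clock genes and 1843 of all genes, and DESeq2 called 0 clock genes and 13 of all genes). Per3 was at 41.5, 83.96 and 97.75 CPM (lowest, median and highest) in Kir2.1 non-transduced VIP nuclei, against 76.84, 92.63 and 126 CPM in mutant non-transduced VIP nuclei, a log2 fold change of -0.36 ± 0.16 (edgeR adjusted p = 0.514). Camta1 around it gave -0.48 ± 0.17 (edgeR adjusted p = 0.316). Cry2 gave 0.46 ± 0.21 there (edgeR adjusted p = 0.514). Among all non-transduced nuclei, 0 of 10 clock genes and 0% of 21362 genes passed by edgeR, with 0 clock genes and 1289 of all genes at an unadjusted p under 0.05, and with 0 clock genes and 3 of all genes called by DESeq2. The clock genes furthest from 0 there were Per2 at -0.44 ± 0.25 (edgeR adjusted p = 0.882) and Nr1d1 at 0.35 ± 0.21 (edgeR adjusted p = 0.889).

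Within the Kir2.1 vector, transduced VIP nuclei were compared with non-transduced VIP nuclei. Per3 was the 1 clock gene of 10 that passed, where 0.769% of all genes did (0.17% higher and 0.599% lower). Its level was above the highest non-transduced Kir2.1 library, at 97.75 CPM, in 9 of the 10 transduced libraries. The log2 fold change was 0.82 ± 0.16, or 1.77-fold (edgeR adjusted p = 0.00208), and without the libraries that stood apart it was 0.76 (edgeR adjusted p = 0.00423). Camta1 gave 0.31 ± 0.17 in the same contrast (edgeR adjusted p = 0.613). With the mutant vector the transduced against non-transduced contrast called 0 of 10 clock genes and 0.00943% of all genes (2 genes); Per1 and Cry2 had an unadjusted p under 0.05, and DESeq2 called 0 clock genes. Per3 there gave -0.11 (edgeR adjusted p = 1), with 60.86 to 119.5 CPM in transduced and 76.84 to 126 CPM in non-transduced mutant VIP nuclei. The difference of these 2 effects was 0.93 ± 0.23 for Per3 (edgeR adjusted p = 0.0525) and -0.97 ± 0.30 for Cry2 (edgeR adjusted p = 0.147), with 0 of 10 clock genes and 0.401% of all genes called (0.123% higher and 0.278% lower). The genes that overlap them gave 0.56 ± 0.24 for Camta1 (edgeR adjusted p = 0.515) and -0.80 ± 0.34 for D930015M05Rik (edgeR adjusted p = 0.492). By DESeq2 the difference for Per3 passed (adjusted p = 0.0103).

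Marker genes moved with the same contrasts. In transduced VIP nuclei the summed VIP neuron markers were 7981 to 11870 CPM with Kir2.1, against 15200 to 19530 CPM with the mutant vector, and the summed excitatory neuron markers were 909.7 to 1618 CPM with Kir2.1, against 493.8 to 661.3 CPM with the mutant. Of these lists 4 of 10 VIP markers were lower and 1 of 10 excitatory markers, Camk2a, was higher by edgeR. Markers of other interneurons summed to 38.36 to 117.8 CPM with Kir2.1 and 89.51 to 376.2 CPM with the mutant in transduced VIP nuclei, with 1 of 7 lower (Npy). The summed pan-GABAergic markers were 988.3 to 2002 CPM with Kir2.1 and 993.8 to 2457 CPM with the mutant, with 2 of 9 entries lower (Dlx1 and Dlx6os1). Of the glial and vascular markers 0 passed there, where 0.354% of all genes were higher and 1.03% lower. Kir2.1 non-transduced VIP nuclei had 13230 to 19980 CPM of VIP neuron markers and 487.9 to 842.5 CPM of excitatory markers. In transduced neurons, pan-GABAergic markers summed to 52.99 to 158.6 CPM with Kir2.1 and 132.7 to 299.6 CPM with the mutant. There 3 of 6 tested were lower, as were 2 of 6 markers of other interneurons (90.4 to 443.2 CPM with Kir2.1 and 223.9 to 407 CPM with the mutant) and 1 of 3 VIP neuron markers (63.27 to 446.6 CPM with Kir2.1 and 242.8 to 692.7 CPM with the mutant). Excitatory markers in transduced neurons summed to 1602 to 2123 CPM with Kir2.1 and 1653 to 2218 CPM with the mutant, and 0 of 10 passed. Astrocyte markers summed to 260.3 to 376.6 CPM with Kir2.1 and 408.1 to 480.7 CPM with the mutant, with 2 of 7 lower. Of all genes tested in transduced neurons, 2.18% were higher and 3.45% lower. The part of these markers in the Per3 and Cry2 results was not tested.

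Around the 10 genes, 24 other genes of the clock loops and outputs were measured. Tef, the D-box factor related to Dbp, was higher with Kir2.1 in both transduced populations. In transduced VIP nuclei it averaged 174.8 ± 40.97 CPM with Kir2.1 (SD, n = 10) and 95.8 ± 19.9 CPM with the mutant vector (SD, n = 9), a log2 fold change of 0.88 ± 0.22 (edgeR adjusted p = 0.0186). In transduced neurons it averaged 238.1 ± 55.8 CPM with Kir2.1 and 135.9 ± 16.2 CPM with the mutant (SD, n = 8 each), a log2 fold change of 0.86 ± 0.15 (edgeR adjusted p = 0.000713). Npas2, which can stand in for Clock as a partner of BMAL1, was lower in Kir2.1 neurons (-0.57 ± 0.17, edgeR adjusted p = 0.0479). So 1 of 24 passed in VIP nuclei, higher, and 1 higher and 1 lower of 23 tested passed in neurons, with list medians of 0.13 and 0.06. Of all genes, 1.39% passed in VIP nuclei (0.354% higher and 1.03% lower) and 5.63% in neurons (2.18% higher and 3.45% lower). The same shares stand beside the lists that follow. Of genes induced by activity, 6 of 15 fell and 0 rose in transduced VIP nuclei, with a list median of -1.90, and 4 of 10 fell and 0 rose in neurons, with a median of -2.09. Among them Nr4a1, an activity-induced nuclear receptor, changed by -2.86 ± 0.40 in VIP nuclei and -3.70 ± 0.48 in neurons. Of glucocorticoid-induced genes, 0 of 12 passed in VIP nuclei and 1 of 11 in neurons (Zbtb16, -0.78, edgeR adjusted p = 0.0185). Of temperature-responsive genes, 0 of 10 passed in VIP nuclei and 0 of 9 in neurons.

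More clock genes passed between sorted populations than between vectors, as did more of all genes. VIP nuclei were set against all nuclei over the non-transduced and uninjected libraries, with the vector as a term. Of the 10 clock genes 4 were lower in VIP nuclei and 0 higher, where 32.6% of 22855 genes passed, 12.8% higher and 19.7% lower. The 4 were Per3 (-1.04 ± 0.11, edgeR adjusted p = 1.18e-11), Arntl (-0.68 ± 0.13, edgeR adjusted p = 3.29e-05), Per1 (-0.79 ± 0.22, edgeR adjusted p = 0.00368) and Per2 (-0.53 ± 0.18, edgeR adjusted p = 0.0164). Genes that overlap 2 of them were lower too, Camta1 around Per3 (-0.39 ± 0.10, edgeR adjusted p = 0.0012) and Gm45355 across the strand from Arntl (-1.95 ± 0.76, edgeR adjusted p = 0.0437). Per3 ran from 41.5 to 97.75 CPM in Kir2.1 non-transduced VIP nuclei, against 103.1 to 216.7 CPM in all Kir2.1 non-transduced nuclei, and these groups did not overlap. With the mutant vector it ran from 76.84 to 126 CPM in VIP nuclei, against 132 to 282 CPM in all nuclei, and without AAV from 79.79 to 85.48 CPM in VIP nuclei, against 112.7 to 181.7 CPM in all nuclei. In each of the 3 settings VIP nuclei lay below all nuclei with no overlap. Clock, by contrast, gave 0.21 (edgeR adjusted p = 0.159), Cry2 -0.04 and Nr1d1 -0.27 (edgeR adjusted p = 0.146).

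Against transduced neurons, transduced VIP nuclei were lower in 7 of 10 clock genes and higher in 0, where 29.2% of 18359 genes passed (12.4% higher and 16.8% lower). The median clock gene changed by -0.68 and the median of all genes by -0.02 on the log2 scale. Dbp showed the lowest fold change, -1.61 ± 0.26 (edgeR adjusted p = 2.52e-06). It ran from 1.327 to 13.11 CPM in Kir2.1 VIP nuclei, against 12.27 to 29.45 CPM in Kir2.1 neurons, and from 1.5 to 8.727 CPM in mutant VIP nuclei, against 8.855 to 19.02 CPM in mutant neurons. The Kir2.1 ranges overlapped and the mutant ranges did not. Arntl gave -1.23 ± 0.15 (edgeR adjusted p = 3.39e-09), with 27.64 to 69.84 CPM in Kir2.1 VIP nuclei against 73.6 to 124.7 CPM in Kir2.1 neurons. All of those Kir2.1 VIP libraries lay below all Kir2.1 neuron libraries for Arntl, whose product is the partner of CLOCK. With the mutant vector the Arntl ranges overlapped, at 22.98 to 66.26 CPM in VIP nuclei and 56.44 to 137.9 CPM in neurons. The period genes gave -0.86 ± 0.18 for Per1 (edgeR adjusted p = 0.000178), -0.99 ± 0.20 for Per2 (edgeR adjusted p = 0.000125) and -1.12 ± 0.11 for Per3 (edgeR adjusted p = 8.13e-12). Nr1d1 gave -0.51 ± 0.15 (edgeR adjusted p = 0.0073). Cry2 gave -0.39 ± 0.14 (edgeR adjusted p = 0.028), a call that was lost without the libraries that stood apart (edgeR adjusted p = 0.107). Clock gave -0.09 (edgeR adjusted p = 0.67), Cry1 -0.29 (edgeR adjusted p = 0.672) and Nr1d2 -0.42 (edgeR adjusted p = 0.0886). Camta1, around Per3, was also lower in VIP nuclei (-0.69, edgeR adjusted p = 2.04e-06), as was D930015M05Rik, across the strand from Cry2 (-0.58 ± 0.17, edgeR adjusted p = 0.00625).

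**Figure D3:**
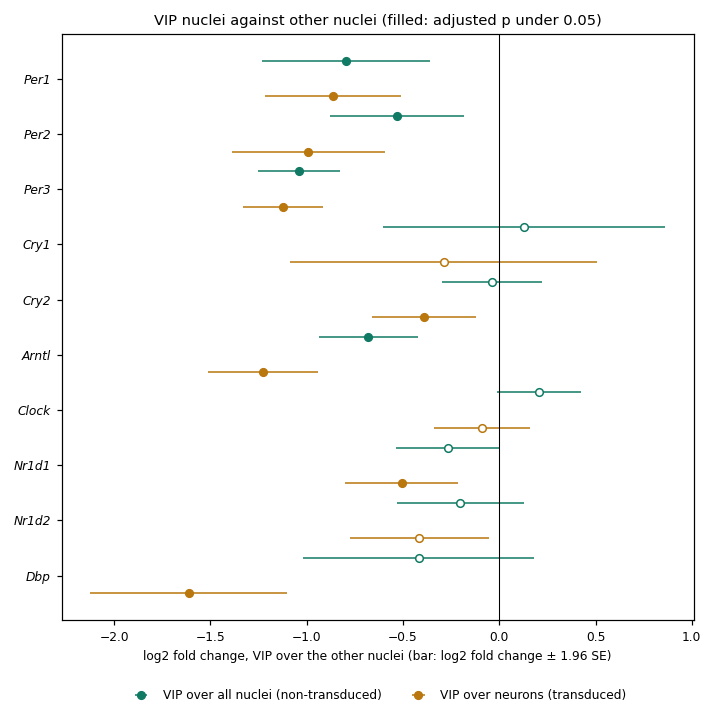
Log2 fold change of each clock gene in VIP nuclei over all nuclei and in transduced VIP nuclei over transduced neurons. Points are edgeR estimates, and filled points passed the adjusted threshold of 0.05. Bars are approximate 95% intervals set from the SE by the normal distribution. The filled points, 4 in the first contrast and 7 in the second, all lie below 0.

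Of the other clock loop genes, 1 of 24 was higher in VIP nuclei than in all nuclei and 7 were lower, a share near the 32.6% of all genes called in that comparison. The 6 with the smallest p were all lower: Rorb (-4.67), Npas2 (-1.89), Hlf (-2.62), Cipc (-0.86), Bhlhe40 (-1.14) and Ciart (-0.82). The higher one was Nfil3, a D-box repressor (1.72), named after its value was seen. Rorb is a nuclear receptor known as a marker of cortical layer neurons, and Hlf is a further relative of Dbp. Against transduced neurons, 2 of 23 were higher in transduced VIP nuclei and 12 lower, where 29.2% of all genes passed, with Rorb at -4.77, Hlf at -2.34 and Npas2 at -2.34.

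Injection itself was checked against cortex without AAV, with 3 libraries per population. By Xist and Y-linked counts, 0 no-AAV sets had the female pattern, against 6 Kir2.1 sets and 5 mutant sets. The part of sex in this comparison was not tested. Of the 10 clock genes 0 passed in VIP nuclei, where 0.00943% of genes did, and 0 passed in all nuclei, where 0.211% did (0.197% higher and 0.014% lower). At an unadjusted p under 0.05 these were 1 and 0 clock genes, and DESeq2 called 0 in both. Per2 in VIP nuclei was furthest from 0, at 14.24 to 67.08 CPM over both vectors, against 13.8, 18.88 and 25.44 CPM without AAV, a log2 fold change of 1.14 ± 0.43 (edgeR adjusted p = 0.465).

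Libraries that share a vector and a replicate number were then tested for agreement across populations, with 1 term per number within each vector (19 df, 50 residual df) added to the group means. Of the 10 clock genes 2 passed, Per2 and Nr1d1, where 6.84% of 24344 genes did, and 10.9% of the 13526 genes at 5 CPM or more. Per2 gave F = 2.76 (edgeR adjusted p = 0.0255) with an intraclass correlation, the share of variance between sets, of 0.385. Nr1d1 gave F = 2.76 (edgeR adjusted p = 0.026) with an intraclass correlation of 0.36. Cry1 followed at 0.294 (edgeR adjusted p = 0.356), then Per3 at 0.232 (edgeR adjusted p = 0.182), and Dbp was at 0.046 (edgeR adjusted p = 0.632). The median over the 10 genes was 0.11 and over all genes, thinly counted ones included, 0.06. All 10 clock genes had a mean of at least 5 CPM. Among genes at that level a value of 0.104 (Fkbp5) lay at percentile 50.3, so the clock median was near the middle.

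For Per2 the agreement rested mainly on mutant set 7. Mutant replicate 7 had 11.57 CPM in transduced VIP nuclei, 31.15 CPM in transduced neurons, 14.24 CPM in non-transduced VIP nuclei and 22.57 CPM in all non-transduced nuclei. Each was the lowest of its group, and the 4 deviations from the group means lay between -1.49 and -1.38 on the log2 scale. Without this set the edgeR adjusted p of Per2 was 0.52. Without mutant set 1 it was 0.0559, and the calls over all genes fell from 1664 to 603. The call of Nr1d1, the repressor of Arntl, depended on more sets. It held on leaving out 18 of the 22 sets singly, and that of Per2 on leaving out 20. In 5 of the 19 sets of 3 or 4 libraries, all libraries lay on 1 side of their group means, for Per2 and Nr1d1 alike. For Cry1, which was not called, there were 9 such sets. Kir2.1 sets 6 and 8 were below their group means in all 4 libraries, by a mean of -0.68 and -0.66, and Kir2.1 set 3 was above in all 4, by a mean of 0.45. The edgeR adjusted p of Nr1d1 was 0.173 without Kir2.1 set 6, 0.148 without Kir2.1 set 8, 0.0535 without Kir2.1 set 3 and 0.0719 without mutant set 1. It was 0.108 without the libraries that stood apart, where that of Per2 was 0.00589. Neither gene passed over the VIP libraries alone (edgeR adjusted p = 0.277 for Per2 and 0.287 for Nr1d1) or without the transduced VIP libraries (0.0999 and 0.324).

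**Figure D4:**
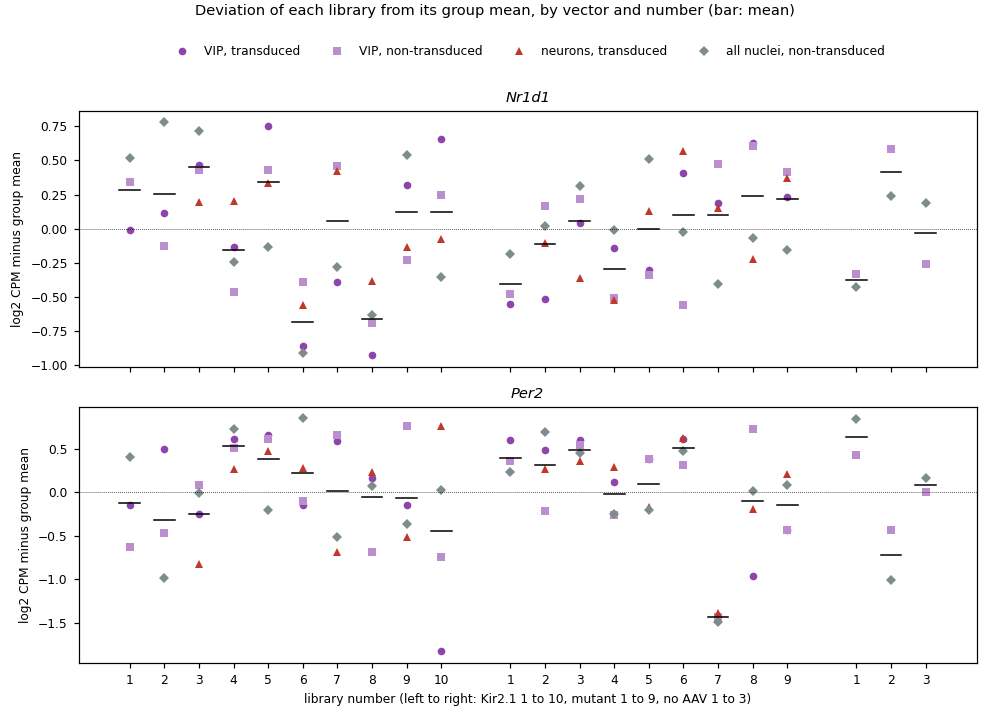
Deviation of each library from its group mean (log2 CPM) for Per2 and Nr1d1, by replicate number within each vector; each point is 1 library of a sorted population and bars are set means. For Per2 all 4 libraries of mutant set 7 lie below -1.38, and for Nr1d1 Kir2.1 sets 6 and 8 lie below 0 throughout.

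Other gene lists gave a scale for this agreement. All 5 sex genes passed, where 6.84% of all genes did and 10.9% of those at 5 CPM or more. Of 24 other clock loop genes 1 passed, Rora (edgeR adjusted p = 0.00149), of 18 activity-induced genes 1, Fos (edgeR adjusted p = 0.0311), and of 12 glucocorticoid-induced genes 1, Mt1 (edgeR adjusted p = 0.00156). For each of the clock loop, activity and glucocorticoid lists this count was near the share of all genes. Of 10 temperature-responsive genes 6 passed, among them the chaperone genes Hspa8 (edgeR adjusted p = 1.83e-06) and Hspa5 (edgeR adjusted p = 2.36e-06), and the list's median intraclass correlation was 0.42.

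Set means of the 10 genes were also compared with each other across the 19 sets with AAV, as 45 pairs within vector. After Benjamini-Hochberg adjustment 0 of 45 pairs passed in a permutation test of Pearson's r, and 4 had an unadjusted p under 0.05. The lowest r was between Clock and Nr1d1, at -0.592 (Spearman's rho -0.554, permutation p = 0.00805, adjusted p = 0.207), with -0.705 over the Kir2.1 sets and -0.467 over the mutant sets, and it was -0.437 without the 2 sets furthest from the median of Clock. Cry2 and Clock gave an r of -0.567 (rho -0.651, permutation p = 0.00922, adjusted p = 0.207), with -0.644 over the Kir2.1 sets and -0.539 over the mutant sets, and -0.566 without the 2 sets furthest from the median of Cry2. With set means from all non-transduced nuclei alone, the r of Cry2 and Clock was -0.129 (permutation p = 0.604) and that of Clock and Nr1d1 was -0.39 (permutation p = 0.0991). From the VIP libraries alone they were -0.437 (permutation p = 0.0561) and -0.537 (permutation p = 0.0201). Within the loop, Per1 and Per2 had an r of 0.281, and Arntl and Clock one of -0.307.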

How the data were processed

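RNA was measured in 79 bulk libraries of 50 to 100 sorted nuclei, made with oligo-dT priming, 17 PCR cycles and Nextera XT, per the labels' protocols. The authors deposited 1 table of raw counts per gene for all libraries, with Ensembl IDs. Reads were handled with cutadapt 1.18, STAR 2.5.3a and HOMER 4.9.1 on mm10, per the submitters' processing notes; the order and settings are not given in the sources used here. PCR duplicates cannot be told from molecules in these counts.

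From these counts, 55154 of 55335 IDs were matched to a symbol. Each comparison was tested with edgeR 4.0.16 (R 4.3.3; limma 3.58.1 loaded) by the quasi-likelihood F test with TMM scaling and filterByExpr (minimum count 10, minimum total 15). P-values were adjusted over all genes tested (Benjamini-Hochberg, threshold 0.05). SE is the log2 fold change divided by the square root of F. The fits held the 41 VIP libraries, the 16 of transduced neurons, the 22 of all nuclei, 44 for VIP against all nuclei, 35 for transduced nuclei and 79 for agreement between numbered sets. Levels are CPM from the 79-library fit. Pairs of genes were tested with 100000 permutations of set effects within vector. Scripts were tested on simulated counts.

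All 10 genes were named whatever their values; of other clock genes up to 6 per comparison were named by smallest p, and 8 genes most like and 4 least like Dbp. The genes and lists were chosen with earlier results of these data known. Alternatives were DESeq2 1.42.0, its size factors, no filter, the sex label, a replicate block, 1 fit of all libraries, subsets of libraries and leaving out each library or set. The fits without libraries that stand apart and without single libraries of transduced neurons or Kir2.1 VIP nuclei were chosen after seeing the data. The ERCC spike-ins were not analysed here.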

Additional observations from a re-analysis of the deposited data

Results flagged for a closer look

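In 5 of 80 combinations of gene and group (10 genes in 8 groups of 8 to 10 libraries), 1 library lay further from the others than Dixon's 95% limit allows, where chance flags about 1 in 20. All 5 were high values. Arntl reached 83.32 CPM in mutant non-transduced VIP library 6, where the next was at 54.77 CPM. Dbp reached 36.49 CPM in Kir2.1 non-transduced VIP library 9, one of the libraries that stood apart, with the next at 12.96 CPM. In all mutant non-transduced nuclei, library 5 had 25.76 CPM of Dbp and the next 11.48 CPM. Per1 reached 72.35 CPM in library 4 of all Kir2.1 non-transduced nuclei, with the next at 42.19 CPM. In Kir2.1 transduced neurons, library 5 had 61.75 CPM of Per1 and the next 38.32 CPM. Their cause was not tested.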

How the results depend on the processing

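Per3 kept its direction and its call under every alternative run for transduced neurons and for Kir2.1 transduced against non-transduced VIP nuclei (log2 fold changes of 0.60 to 0.70 and 0.75 to 0.87). In transduced VIP nuclei the count of clock genes went to 1 under DESeq2, without the libraries that stood apart and in 1 fit of all 79 libraries. In neurons the count of 2 went to 4 under DESeq2 (Per2, adjusted p = 0.044, and Dbp, adjusted p = 0.0165, were added), to 1 with a replicate block (Cry2, edgeR adjusted p = 0.112) and to 1 in 1 fit of all libraries (Cry2, edgeR adjusted p = 0.0784), and ranged from 1 to 3 without single libraries. Per2 also passed there with no filter (edgeR adjusted p = 0.0404). For the difference of transduction effects the count of 0 went to 1 with no filter (Per3, edgeR adjusted p = 0.0335), 1 under DESeq2 and 2 in 1 fit of all libraries (Per3 and Cry2, edgeR adjusted p = 0.0174 and 0.0419). The agreement count of 2 went to 1 with no filter (Nr1d1, edgeR adjusted p = 0.0821) and to 1 without the libraries that stood apart. It was 0 in VIP libraries only, 0 without transduced VIP libraries and 0 with a replicate block shared across vectors (edgeR adjusted p = 0.641 for Per2 and 0.73 for Nr1d1), and 0 to 2 without single sets; DESeq2 added Per3 (adjusted p = 0.0237). In VIP nuclei against neurons, Nr1d2 passed without the libraries that stood apart (edgeR adjusted p = 0.0125). The causes were not tested.

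Library titles carry a BioRep number, but no label says whether equal numbers mark 1 mouse. The main fits between groups held no term for it, so they treated libraries of 1 vector and number as independent. Between vectors, and against no AAV, the replicate block joined libraries of equal number and kept only numbers found in every group compared. In the other comparisons it joined libraries of the same vector and number. Deviations of libraries with the same vector and number in different populations had a median correlation of 0.066 (31 of 108 pairs over 0.1), and same-numbered Kir2.1 and mutant libraries one of -0.009 (1 of 34). With the replicate block Per3 gave 0.67 in neurons (edgeR adjusted p = 0.0196) and 0.84 in Kir2.1 transduced against non-transduced VIP nuclei (edgeR adjusted p = 0.022), and Cry2 in neurons was the 1 call between groups that it changed.

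Only values that were not called turned in sign. With the replicate block these were, in transduced VIP nuclei, Per2 (0.121), Cry1 (0.142) and Dbp (-0.134); in neurons, Clock (0.090); in non-transduced VIP nuclei, Per1 (-0.013) and Cry1 (-0.249); in Kir2.1 transduced against non-transduced VIP nuclei, Per1 (0.27), Cry1 (0.21) and Nr1d2 (0.061); Cry1 in the difference of transduction effects (0.17) and in VIP against all nuclei (-0.12); Nr1d1 in the difference between populations (-0.0093); and, against no AAV, Nr1d2 (-0.0087) and Dbp (-0.41) in VIP nuclei and Nr1d1 (0.15) in all nuclei. Without the libraries that stood apart they were Per2 (0.030), Cry1 (0.063) and Clock (-0.11) in transduced VIP nuclei, Clock (0.047) and Nr1d2 (0.018) in neurons, Per2 (-0.043) in non-transduced VIP nuclei, and Clock (-0.073) and Dbp (0.28) in Kir2.1 transduced against non-transduced VIP nuclei. With the sex label they were Per2 in non-transduced VIP nuclei (-0.028), and Arntl (0.049, VIP) and Cry1 (0.062, all nuclei) against no AAV. Leaving out single libraries gave, in neurons, -0.098 to 0.047 for Clock and -0.21 to 0.018 for Nr1d2. In Kir2.1 transduced against non-transduced VIP nuclei it gave -0.18 to 0.19 for Per1, -0.23 to 0.087 for Cry1, -0.080 to 0.094 for Clock, -0.17 to 0.14 for Nr1d2 and -0.64 to 0.094 for Dbp. Against no AAV it gave -0.024 to 0.011 for Arntl, -0.37 to 0.17 for Nr1d1, -0.15 to 0.24 for Nr1d2 and -0.16 to 0.78 for Dbp in VIP nuclei, and -0.11 to 0.40 for Per1, -0.054 to 0.25 for Per3 and -0.39 to 0.28 for Cry1 in all nuclei.

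Counts over all genes moved by more than 1.5 times as follows. In transduced VIP nuclei 294 became 145 with the block and 563 in 1 fit of all libraries; in neurons 898 became 1463 under DESeq2, 538 with the block and 505 in 1 fit. In Kir2.1 transduced against non-transduced VIP nuclei 163 became 258 under DESeq2 and 479 in 1 fit, in the mutant contrast 2 became 5 with the block, and in non-transduced VIP nuclei 0 became 3 in 1 fit. The difference of transduction effects went to 719 with no filter and 392 in 1 fit, against 85, and the difference between populations to 274 with no filter, 122 under DESeq2 and 136 in 1 fit, against 58. Against no AAV, 2 in VIP nuclei became 214 with no filter, 76 under DESeq2, 6 with the sex label, 13 with the block, 67 in 1 fit, 4 without no-AAV VIP library 1, 4 without library 2 and 0 without library 3, and 45 in all nuclei became 289 with no filter, 441 under DESeq2 and 23 without no-AAV library 2 of all nuclei. Agreement went to 3918 with no filter, 3340 under DESeq2, 494 in VIP libraries only, 525 without transduced VIP libraries, 183 with the shared block, 683 without the libraries that stood apart and 603 without mutant set 1, against 1664. Depth limits Cry1 and Dbp most, with counts down to 0 and 5 per library.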

Other observations

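The genes whose set effects most resembled those of Dbp over the 19 sets with AAV, among 13525 genes at 5 CPM or more, were Il1r2 (Pearson r 0.761), Ykt6 (0.707), Ctsz (0.706), Recql (0.701), Lipe (0.686), Pla2g16 (0.682), Gm20532 (0.681) and Rpl17 (0.68). The least alike were Slc20a2 (-0.769), Zkscan3 (-0.763), Gm42767 (-0.761) and Gm16226 (-0.734). Nr1d1 ranked 173 from the top with an r of 0.51, and Per1, Per2, Per3 and Arntl had values of -0.317, -0.314, -0.25 and -0.299. The points are sets of 3 or 4 libraries that differ in depth, and these values are a description of them.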
